A study of Mus musculus with 6 samples.

Results

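Ifit1, Ifit2, Ifit3, Ifit3b, Isg15, Isg20, Usp18, Rsad2 and Cmpk2 are antiviral effector genes of the interferon response. They were taken by symbol from a table of exosome RNA that lists 12384 genes. All 9 were listed, with 16 of the 27544 transcripts. Exosomes are small vesicles that cells release, and here they came from bone marrow-derived dendritic cells of C57BL/6 mice. The immature group (n = 3 libraries) and the mature group (n = 3 libraries) came from marrow cells grown to day 7 with GM-CSF at 20 ng/ml and IL-4 at 10 ng/ml, per the labels' protocols. The cells then received lipopolysaccharide at 5 µg/ml or PBS for 24 h, were washed, and released exosomes into fresh medium for 48 h. The protocol text does not tie either treatment to a group by name, and the treatment tag reads untreated for every sample, so the groups are called immature and mature as labelled. Whether animals were pooled, and whether libraries of a group were separate cultures, is not given in the sources used here, so the tests measure the spread between these libraries, which may be technical.

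Lipopolysaccharide, a bacterial cell wall component, signals through Toll-like receptor 4, which can induce interferon beta in dendritic cells. Secreted type I interferon binds its receptor and starts a signal to the nucleus that acts through the interferon-stimulated response element in the promoters of target genes. The genes described here are classical targets of this signal. Their proteins act at different points: IFIT proteins bind viral RNA or the translation machinery, ISG15 is a ubiquitin-like protein that is attached to other proteins, USP18 takes it off again and restrains the receptor, viperin (Rsad2) and CMPK2 act in cytidine nucleotide metabolism, and ISG20 is an RNA exonuclease.

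Promoter sequences are shown because 5 of these genes carry the core letters of the response element close to their start. Of the 9 genes, 8 matched a RefSeq promoter table (build GRCm38.p6) by symbol, with 11 promoters of 300 bases, each from 250 bases before a gene start to 50 after it. The letters GAAANNGAAA were searched on both strands, with overlapping matches allowed. They occurred in 5 of the 11 promoters, those of Ifit1, Ifit3, Ifit3b, Isg15 and Rsad2, and in 3.44% of all 32851 promoters of the same length. In the stretches below, capitals mark the matches, and each is read 5′ to 3′ in the direction of its gene.
Isg15: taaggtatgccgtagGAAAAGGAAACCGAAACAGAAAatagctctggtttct
Ifit1: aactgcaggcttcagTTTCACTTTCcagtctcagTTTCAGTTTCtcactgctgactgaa
Ifit3: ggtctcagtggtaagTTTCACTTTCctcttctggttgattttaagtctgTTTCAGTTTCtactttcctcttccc
Ifit3b: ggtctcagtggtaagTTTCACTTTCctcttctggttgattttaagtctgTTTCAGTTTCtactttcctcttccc
Rsad2: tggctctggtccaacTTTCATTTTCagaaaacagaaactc

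The Isg15 stretch lies at chr4:156200860-156200911 on the minus strand and holds 3 overlapping matches, which run from 78 to 57 bases before the gene start. The Ifit1 stretch lies at chr19:34640770-34640828 (plus strand), with 2 matches between 104 and 76 bases before the start. Ifit3 (chr19:34583358-34583431, plus strand) and Ifit3b (chr19:34607754-34607827, plus strand) have the same 74 bases, and the longest run of identical bases in their 300-base promoters was 169 bases. The Rsad2 stretch lies at chr12:26456548-26456587 on the minus strand, with 1 match between 120 and 111 bases before the start. Promoters with 2 or more matches made up 0.225% of the 32851. These letters are not in the windows of Ifit2, Isg20 and Cmpk2. The letters TTCNNNGAA, the core of the gamma-activated site, were also searched. They occurred in 2 of the 11 promoters, of Ifit2 and Isg20, and in 8.30% of all 32851 promoters.

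The deposited values are FPKM (fragment numbers normalised to transcript length and library size), and a gene's level is the sum over its listed transcripts. FPKM values do not give read totals, so the depth of the libraries is unknown. Summed FPKM ranged from 130401 to 281368 between libraries. Immature library 2 and mature library 1 had 10912 and 12924 transcripts at 0.5 FPKM or more, against 15432 to 18775 in the other 4, and the calls of the 9 genes and of the pathway lists are also given without both. The ratios, nearest profiles and marker sums are given for all 6 libraries. All 10 dendritic cell markers of a fixed list were listed, and their summed level was 1762 to 2324 FPKM in the immature and 3124 to 4873 FPKM in the mature libraries. Of the 9 tested, 0 passed limma over all genes. Ccr7 and Ccl22 were higher in the mature group with an unadjusted p under 0.05, as were 9.52% of all genes tested. Ccr7, the receptor that guides dendritic cells to lymph nodes, stood at 8.69, 10.0 and 8.26 FPKM against 32.2, 38.7 and 45.3 FPKM (log2 fold change 1.98, limma adjusted p = 0.151). Ccl22, which encodes a T cell attracting chemokine, stood at 86.7, 108 and 25.3 FPKM against 370, 264 and 409 FPKM (2.44, limma adjusted p = 0.24). The groups do not overlap for the class II gene H2-Ab1 either, at 209 to 376 FPKM against 471 to 661 FPKM. In 16.7% of all genes tested the mature values likewise lay above the immature ones. The groups overlap for H2-Aa (169 to 470 FPKM against 420 to 525 FPKM) and Cd74 (265 to 615 FPKM against 601 to 1461 FPKM). They also overlap for Cd86 (2.21 to 19.1 FPKM against 17.4 to 19.7 FPKM) and Ccl17 (670 to 1075 FPKM against 961 to 1820 FPKM). Itgax (CD11c) ranged from 7.36 to 54.9 FPKM against 21.1 to 32.2 FPKM. The groups also overlap for Zbtb46, at 1.29, 0.335 and 1.13 FPKM against 0.778, 1.64 and 2.54 FPKM. Flt3 stood at no more than 0.906 FPKM in any library. What this difference in dendritic cell markers contributes to the results below was not tested.

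All 9 genes stood higher in each mature library than in any immature library, and none passed the test over all genes. In 16.7% of the 10277 genes tested, all 3 mature values were likewise above all 3 immature values. With limma, 0 of the 9 had a Benjamini-Hochberg adjusted p under 0.05, where 0.185% of all genes did and were higher in the mature group. At an unadjusted p under 0.05, 9 of the 9 were higher, against 9.52% of all genes. The mature mean was between 4.24 and 14.5 times the immature mean. The median log2 fold change of the 9 was 2.60, on the log2(FPKM + 1) scale used for every fold change here, and the median over all genes tested was 0.38. The scale understates the difference for genes with low values. In exosome RNA, more vesicles from a cell type and more RNA per vesicle cannot be told apart. All 9 passed the filter on low values, and for each of them the mature libraries alone would have sufficed to pass it.

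**Figure D1:**
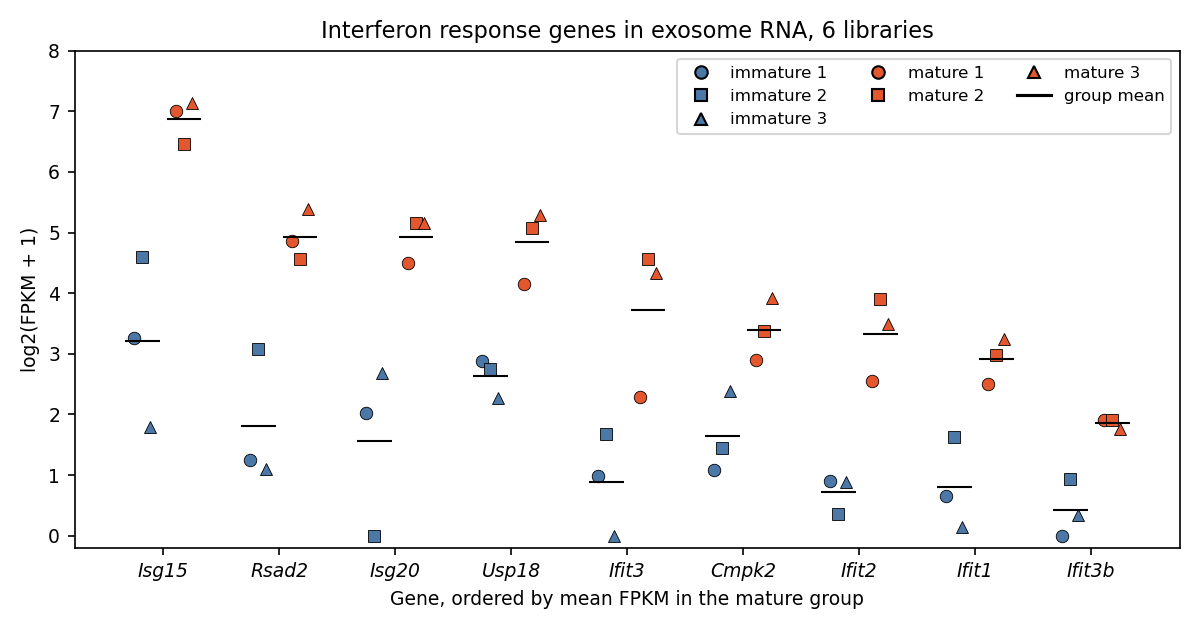
Level of each gene as log2(FPKM + 1) in 3 immature libraries (blue) and 3 mature libraries (red), with marker shapes for libraries 1, 2 and 3 and black lines for group means. For every gene the lowest red point lies above the highest blue point; the gap is narrowest for Cmpk2 and Ifit3.

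Isg15, which encodes the ubiquitin-like modifier, had the highest level of the 9 genes in the mature group. Immature libraries 1 to 3 held 8.59, 23.2 and 2.45 FPKM of it, and mature libraries 1 to 3 held 127, 87.4 and 140 FPKM. The lowest mature value was thus 3.76 times the highest immature value, which came from immature library 2. The difference was 3.65 as a log2 fold change (SE 0.68, limma adjusted p = 0.0914). The gene lies at chr4:156199424-156200818 on the minus strand and was listed with a single protein-coding transcript.

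Usp18 encodes the protease that removes ISG15 from proteins and, separately, binds the interferon receptor and dampens its signal. Its level was 6.37, 5.73 and 3.82 FPKM in the immature libraries, against 16.8, 32.9 and 38.3 FPKM in the mature ones. Among the 9 genes it had the second highest mean in the immature group, 5.31 ± 1.32 FPKM (SD, n = 3). The immature libraries lay close together, and mature library 1 stood below mature libraries 2 and 3. The log2 fold change came to 2.21 (SE 0.49, limma adjusted p = 0.153). Transcript Usp18-201 held at least 97.5% of the gene's FPKM in every library.

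The 4 Ifit genes lie in a row on chromosome 19, all on the plus strand, and encode proteins built of tetratricopeptide repeats. Ifit1, whose protein binds RNA caps that lack the methylation of host caps, had immature values of 0.584, 2.08 and 0.105 FPKM and mature values of 4.69, 6.88 and 8.45 FPKM. The groups do not overlap, and immature library 2 was the highest of its group. Its log2 fold change was 2.10 (SE 0.52, limma adjusted p = 0.198).

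Ifit2, whose protein forms complexes with the other family members, had immature values of 0.876, 0.282 and 0.849 FPKM and mature values of 4.87, 14.1 and 10.3 FPKM. As a ratio of FPKM it had the widest gap between the groups, the lowest mature value being 5.56 times the highest immature value. This ratio rests on immature values of no more than 0.876 FPKM, and Ifit2 does not have the widest gap on the log2(FPKM + 1) scale. Its log2 fold change was 2.60 (SE 0.51, limma adjusted p = 0.102). The immature value of library 3 came entirely from transcript Ifit2-202, while Ifit2-201 held the whole of the value in immature libraries 1 and 2 and at least 95.5% in the mature libraries.

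Ifit3, whose protein binds IFIT1 and IFIT2, had immature values of 0.982, 2.21 and 0 FPKM and mature values of 3.87, 22.8 and 19.2 FPKM. Mature library 1 stood far below the other mature libraries, at 1.75 times the highest immature value. The log2 fold change came to 2.84 (SE 0.69, limma adjusted p = 0.197). Ifit3b, the neighbouring copy, had the lowest level of the 9 genes in both groups, with immature values of 0, 0.912 and 0.274 FPKM and mature values of 2.76, 2.77 and 2.39 FPKM. Its mature values lay close together where those of Ifit3 did not, and its log2 fold change was 1.43 (SE 0.42, limma adjusted p = 0.303). Ifit3 and Ifit3b are near-identical copies, so reads may have been divided between them in the authors' estimates, and the split between both is uncertain.

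Rsad2 encodes viperin, a radical SAM enzyme that turns CTP into a chain-terminating analogue. The immature libraries held 1.38, 7.48 and 1.14 FPKM of it and the mature libraries 28.0, 22.6 and 40.8 FPKM. The high immature value again came from library 2, and the lowest mature value was 3.02 times as high as it. On the log2 scale the groups differed by 3.12 (SE 0.60, limma adjusted p = 0.102). Of its transcripts, Rsad2-201 held at least 94.9% of the FPKM, and the non-coding Rsad2-203 was listed at 1.43 FPKM in mature library 1, 0.433 FPKM in mature library 3 and 0 in the other 4 libraries.

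Cmpk2 encodes a mitochondrial kinase that makes nucleoside diphosphates and triphosphates of cytidine and uridine, and its gene lies beside Rsad2 in the opposite direction, 12752 bases away on chromosome 12. The immature values were 1.13, 1.72 and 4.21 FPKM and the mature values 6.46, 9.33 and 14.2 FPKM, and the groups were separated by the smallest gap of the 9 genes, 1.53 times. Its highest immature value came from library 3, where Rsad2 was at its lowest. On the log2 scale the difference was 1.76 (SE 0.53, limma adjusted p = 0.31).

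Isg20 encodes a 3′ to 5′ exonuclease that degrades single-stranded RNA. Summed over transcripts, the immature libraries held 3.06, 0 and 5.41 FPKM and the mature libraries 21.5, 34.6 and 34.6 FPKM. Immature library 2, which had the highest values of Isg15, Rsad2, Ifit1, Ifit3 and Ifit3b in its group, was listed at 0 for Isg20. Its log2 fold change was 3.37 (SE 0.67, limma adjusted p = 0.113).

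Isg20 was the 1 gene of the 9 with more than 2 listed transcripts, and the share of its transcripts differed between libraries of a group. Isg20-201, which starts at chr7:78913765, held 83.9% and 63.1% of the FPKM in immature libraries 1 and 3, and its share in mature libraries 1 to 3 was 53.6%, 81.5% and 57.2%. Isg20-202 starts at chr7:78913424. Its immature values were 0, 0 and 0.0475 FPKM and its mature values 9.87, 1.62 and 8.14 FPKM, and in the mature libraries it held 46.0%, 4.68% and 23.5% of the gene's FPKM. The groups do not overlap for Isg20-202 (log2 fold change 2.65, SE 0.64, limma adjusted p = 0.29 over all transcripts). The 5 transcripts overlap, so their values depend on how reads were divided among them.

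**Figure D2:**
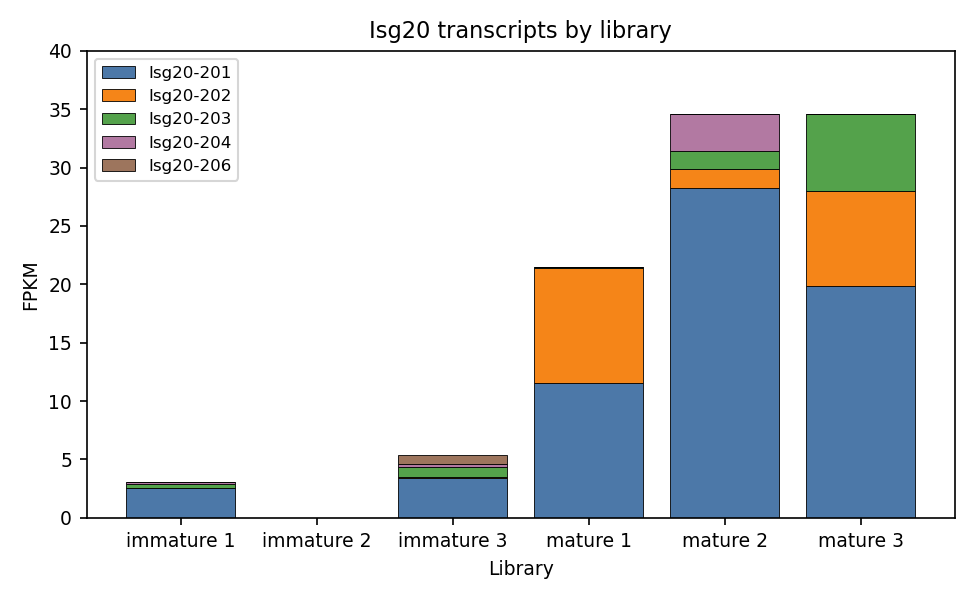
FPKM of the 5 listed Isg20 transcripts stacked by library. The bar of immature library 2 is at 0, and the Isg20-202 layer is thickest in mature library 1 (9.87 FPKM) and thin in mature library 2 (1.62 FPKM).

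At the level of transcripts, 11 of the 16 passed the filter on low values, and 0 of these had an adjusted p under 0.05 with limma, against 0.0626% of all transcripts tested that passed in this direction. At an unadjusted p under 0.05, 10 of the 11 were higher in the mature group, against 7.39% of all transcripts tested. The exception was Isg20-203, at 0.364, 0 and 0.90 FPKM and at 0.103, 1.61 and 6.66 FPKM. For Ifit1, Ifit3, Ifit3b, Isg15 and Cmpk2 the only listed transcript is the gene value, so the transcript counts add little to the gene counts.

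Within a group the 9 genes did not share an order of the libraries. In the immature group library 2 held the highest value of 5 genes, library 1 that of Ifit2 and Usp18, and library 3 that of Isg20 and Cmpk2. In the mature group library 1 held the lowest value of 6 genes, namely Ifit1, Ifit2, Ifit3, Isg20, Usp18 and Cmpk2. Isg15 and Rsad2 were lowest in mature library 2, and Ifit3b in mature library 3. Together the 9 genes held 23.0, 43.7 and 18.3 FPKM in the immature libraries, against 216, 233 and 308 FPKM in the mature ones, of which Isg15 alone held 13.4% to 53.2% in the immature and 37.5% to 58.8% in the mature libraries. As a share of all FPKM in the table, the sum was 0.0158%, 0.0321% and 0.00854% in the immature and 0.166%, 0.0830% and 0.125% in the mature libraries.

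**Figure D3:**
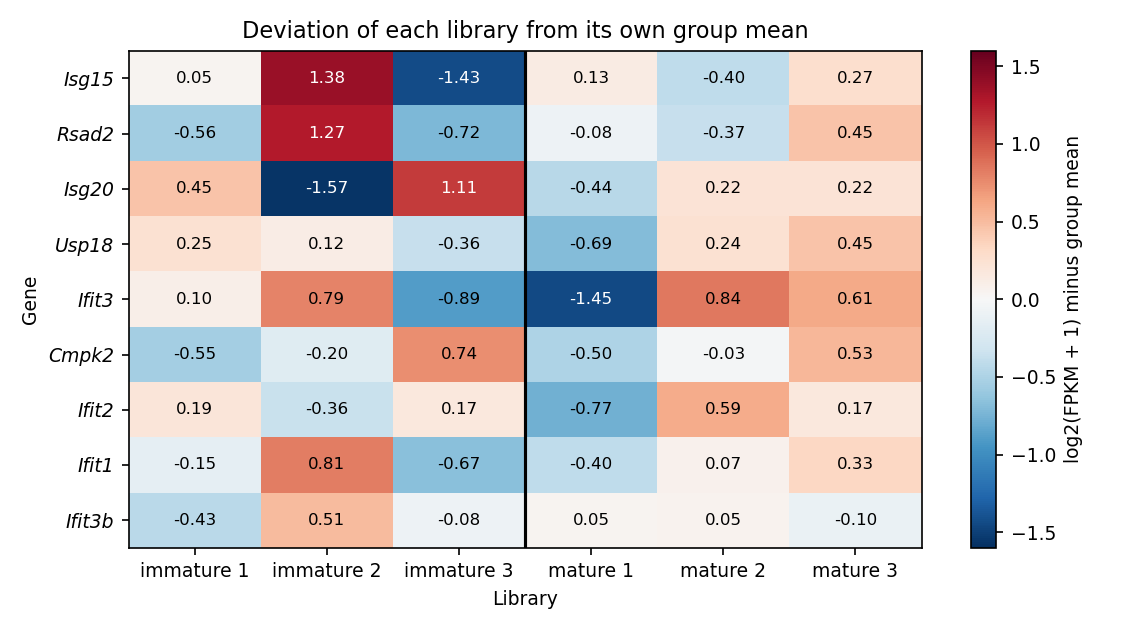
Deviation of each library from the mean of its own group on the log2(FPKM + 1) scale, by gene (rows) and library (columns), with red above and blue below the group mean. Immature library 2 is highest for Isg15 (1.38) and Rsad2 (1.27) and lowest for Isg20 (-1.57); Ifit3 is lowest in mature library 1 (-1.45).

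In order of their mature means, which FPKM allows because it is per length, the genes were Isg15 (118 ± 27.4 FPKM), Rsad2 (30.4 ± 9.34), Isg20 (30.2 ± 7.58), Usp18 (29.3 ± 11.2), Ifit3 (15.3 ± 10.1), Cmpk2 (9.99 ± 3.90), Ifit2 (9.73 ± 4.62), Ifit1 (6.67 ± 1.89) and Ifit3b (2.64 ± 0.217), each as mean ± SD with n = 3. The range of Isg15 lay above that of Rsad2, and the range of Ifit1 above that of Ifit3b. All other neighbours in this order overlapped in their ranges. In the immature group Isg15 (11.4 ± 10.7 FPKM) was again first, followed by Usp18, and every pair of neighbours overlapped.

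Ratios within a library do not depend on a single factor that scales the whole library. The Isg15 to Usp18 ratio, modifier over its protease, was 1.35, 4.05 and 0.64 in the immature and 7.56, 2.66 and 3.66 in the mature libraries. The Rsad2 to Cmpk2 ratio was 1.22, 4.36 and 0.27 in the immature and 4.34, 2.42 and 2.88 in the mature libraries. In both ratios immature library 2 lay within the range of the mature libraries or above it. The Isg15 to Rsad2 ratio was 6.21, 3.11 and 2.15 against 4.54, 3.87 and 3.44. For none of the 3 ratios was a difference larger than the spread between libraries found (exact permutation test, 2-sided, p = 0.3, 0.4 and 0.8, adjusted to 0.6, 0.6 and 0.8 over the 3 ratios), where 3 against 3 libraries cannot go below 0.1.

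Leaving out single libraries changed which genes passed. Without immature library 2, Isg15 (log2 fold change 4.35, limma adjusted p = 0.0216) and Rsad2 (3.76, limma adjusted p = 0.0184) passed. Without immature library 3, Isg20 passed (3.92, limma adjusted p = 0.0199). Leaving out both immature library 2 and mature library 1 set immature libraries 1 and 3 against mature libraries 2 and 3. Immature library 2 held the highest immature value of 5 of the 9 genes, and mature library 1 the lowest mature value of 6. Without both, 7 of the 9 passed, all but Ifit3b and Cmpk2, and 0 of their transcripts did. The count over all 10277 genes tested went from 19 to 73. For Ifit3 the log2 fold change was then 3.96 (SE 0.48, limma adjusted p = 0.017) and for Rsad2 it was 3.80 (SE 0.45, limma adjusted p = 0.017).

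**Figure D4:**
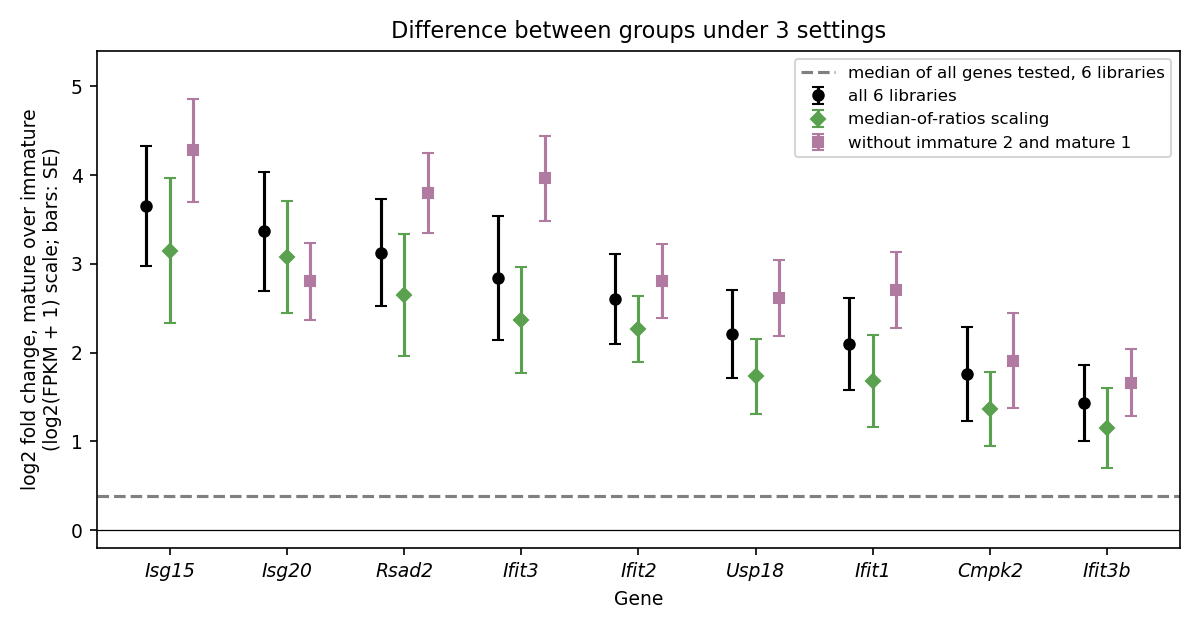
Log2 fold change of each gene, mature over immature, with its standard error, for all 6 libraries (black), with median-of-ratios scaling (green) and without immature library 2 and mature library 1 (purple). All values lie above the dashed median of all genes tested with all 6 libraries (0.38). That median was 0.02 with median-of-ratios scaling and 0.48 without the 2 libraries, and these are not drawn. Without the 2 libraries Ifit3 stands at 3.96 and Isg20 at 2.80.

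Other genes were taken from fixed pathway lists. Besides interferon lists, these hold nucleotide synthesis genes (10 tested) and exonuclease genes related to Isg20 (6 tested), which the next counts include. Of 88 tested genes outside the 9, 4 rose with limma over all genes and 0 fell, against 19 (0.185%) and 0 of all 10277 genes tested. An unadjusted p under 0.05 was reached by 41 higher genes and 0 lower ones, against 978 (9.52%) and 23 of all genes tested. Among 16 tested genes of interferon induction and signalling the median log2 fold change was 1.18, and 1 rose. This was Irf7, the transcription factor that amplifies interferon induction, at 3.99, 7.51 and 3.86 FPKM against 35.8, 69.3 and 124 FPKM (log2 fold change 3.54, limma adjusted p = 0.0355). Without mature library 3, or with the replicate number as a block, 0 of the 4 passed, and Irf7 was also not called without immature library 1 or mature library 2, with a pseudocount of 0.1 or under the 4 other scalings. The receptor subunit gene Ifnar2, whose protein USP18 binds, was at 6.81, 14.6 and 7.56 FPKM against 19.7, 31.2 and 49.8 FPKM (1.68, limma adjusted p = 0.327). Irf1, Socs1 and Jak1 had log2 fold changes of 1.30, 1.31 and 0.63, with limma adjusted p = 0.401, 0.525 and 0.705. Ifnb1 and 4 interferon alpha genes of the list are not among the genes listed by symbol in the deposited data, so they could not be analysed here.

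Of the 9 tested genes for ISG15 conjugation and binding, 0 passed over all genes, and the median log2 fold change was 0.54. An unadjusted p under 0.05 was reached by 2 higher ones, against 9.52% of all genes tested. Herc6, the main ISG15 ligase of the mouse, was at 1.12, 1.15 and 0.624 FPKM against 3.65, 6.21 and 6.00 FPKM (1.66, limma adjusted p = 0.248). Ube2l6, the conjugating enzyme, was at 8.38, 13.1 and 6.17 FPKM against 7.53, 35.4 and 45.4 FPKM, so that mature library 1 lay within the immature range. Uba7, the activating enzyme, was listed at 0 in immature library 2 and mature library 1, and at 3.02, 3.36, 3.31 and 6.14 FPKM in immature 1, immature 3, mature 2 and mature 3. Trim25, a ubiquitin ligase that is itself a target of ISG15, had a log2 fold change of 1.20 (limma adjusted p = 0.501). Itgb2 and Itgal, which encode the integrin that extracellular ISG15 binds, had 0.71 and 0.54, and Arih1, Usp5 and Usp16 had 0.22, 0.15 and -1.12, with limma adjusted p-values from 0.60 to 0.949 for these 5.

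Of the other interferon-stimulated genes, 47 were tested and 3 rose (Oasl1, Ifi205 and Gbp5), against 0.185% of all genes tested. An unadjusted p under 0.05 was reached by 31 higher ones, against 9.52% of all genes tested. The median log2 fold change of the 47 was 1.58. Oasl1 was not called with quantile normalization, and Ifi205 was not called with a pseudocount of 0.1. Gbp5 was not called with a pseudocount of 0.1, under the 4 other scalings, or without immature library 1, mature library 1 or mature library 2. All 3 also failed without mature library 3 and with the replicate block. Ifi27l2a was at 22.3, 39.0 and 35.9 FPKM against 160, 167 and 284 FPKM (2.60, limma adjusted p = 0.113), and Bst2, the tetherin gene, at 22.7, 72.1 and 19.5 FPKM against 92.5, 162 and 261 FPKM (2.27, limma adjusted p = 0.278). Ifitm3, which blocks viral entry, had a log2 fold change of 1.63 (limma adjusted p = 0.448). The 10 tested genes of pyrimidine nucleotide and CTP synthesis, the metabolism in which viperin and CMPK2 act, had a median of 0.22, and the 6 exonuclease genes related to Isg20 had a median of 0.41, where the median of all genes was 0.38. Over all genes 0 of them passed, and an unadjusted p under 0.05 was reached by 1 and 0 of them. Cmpk1, the cytosolic counterpart of Cmpk2, was at 11.9, 6.67 and 20.0 FPKM against 4.48, 28.2 and 10.4 FPKM. Aen, an exonuclease gene that lies 2215 bases from Isg20 on the same strand, was at 8.33, 6.38 and 12.4 FPKM against 2.73, 12.6 and 9.01 FPKM.

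**Figure D5:**
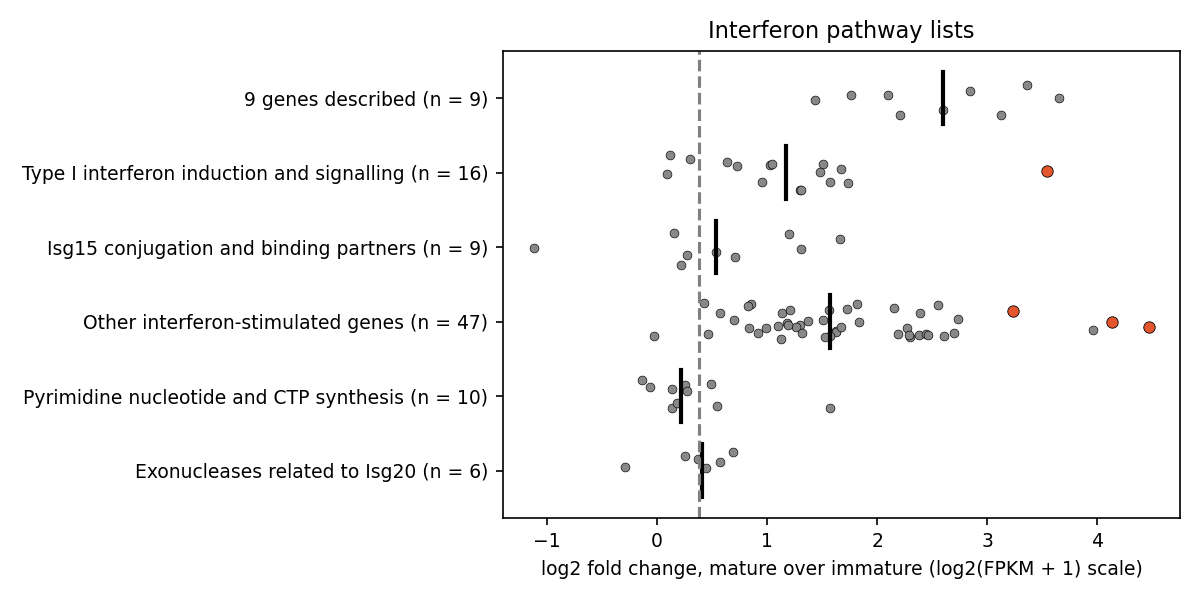
Log2 fold change of each tested gene by list, with red points for genes past limma's adjusted p of 0.05, black bars for list medians and a dashed line at the median of all genes tested (0.38). The 9 genes described have a median of 2.60, and the nucleotide and exonuclease lists centre near the dashed line.

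The genes whose pattern over the 6 libraries was most like that of the 9 were found by the root mean square difference between centred log2(FPKM + 1) profiles. The 8 nearest were Adora2a (0.16), an adenosine receptor gene, Oas1a (0.20) and Oasl2 (0.23) of the oligoadenylate synthetase family, Traf1 (0.26), Mmp14 (0.29), Rras (0.29), Ifi27l2a (0.30) and Nfkbia (0.31), where the median gene was at 1.24. Adora2a was at 1.02, 1.50 and 0.594 FPKM against 5.58, 10.6 and 14.2 FPKM. Of the 9 genes themselves, Usp18 (0.27) was nearest to the mean profile and Isg20 (1.05) farthest. These points share the 6 libraries and their scaling, and the measure is a description.

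Markers of other cells in such cultures differed in part between the groups, and their part in the results above was not tested. Of 9 mast cell, basophil and eosinophil markers, all listed and 7 tested, 0 passed limma over all genes. Of the 7, 5 were higher with an unadjusted p under 0.05, against 9.52% of all genes tested. The 9 markers summed to 14.7 to 42.5 FPKM in the immature and 53.0 to 98.1 FPKM in the mature libraries. Fcer1a was at 0 in all immature libraries and mature library 1. Of 7 markers of plasmacytoid dendritic cells, which make much interferon, 4 were listed, and the sum of 25.8 to 73.2 FPKM against 93.3 to 271 FPKM was mostly Bst2, itself interferon-stimulated, at 19.5 to 72.1 FPKM against 92.5 to 261 FPKM. Tcf4, Ly6d and Cox6a2 stood at no more than 7.78, 3.93 and 2.52 FPKM in any library. Summed neutrophil markers (9 of 9 listed) ranged from 185 to 1228 FPKM and from 247 to 1136 FPKM, and macrophage markers (8 of 8) from 94.8 to 102 FPKM and from 85.3 to 225 FPKM. T and NK cell markers (3 of 7) summed to at most 7.99 FPKM and B cell markers (3 of 5) to at most 3.86 FPKM in any library.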

How the data were processed

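Exosome RNA of 6 libraries, 3 immature and 3 mature by their titles, was compared. Per the file headers, the authors deposited FPKM for each transcript and library. HISAT2 2.0.5, STAR 2.5.2b, StringTie, cutadapt and hg19 are named in the submitters' processing notes without roles. The rows hold mouse genes, and the positions of all 9 genes overlap RefSeq's on GRCm38. Every transcript in the table reached 0.5 FPKM in some library, so weaker isoforms are missing from gene sums. Here FPKM was summed per gene. Genes at 0.5 FPKM or more in at least 3 libraries were tested on log2(FPKM + 1) with limma 3.58.1 in R 4.3.3 (trend and robust options, no replicate block), with Benjamini-Hochberg adjustment over all genes tested and a threshold of 0.05. Count models were not used, since FPKM are not counts. The procedure was tested on simulated data. Tables were made in Python 3.11.15.

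The genes and lists were chosen with earlier results of these data known. The rule for named genes took all 9 genes and their transcripts, all ISG15 conjugation genes, up to 6 genes per other list (those past the test first, then the most abundant) and the 8 nearest profiles. A gene taken by this rule is not reported here. Aen appears as a neighbour, and the marker genes and Adora2a's values follow these lists. Alternatives were other pseudocounts, no filter, 4 other scalings, limma without its options, a replicate block, protein-coding transcripts alone and libraries left out, over the genes tested with all 6 libraries. Scaling to equal summed FPKM was added after seeing the data. Same-numbered libraries of the groups did not deviate together (correlations of -0.03, -0.45 and -0.13 across genes), so the numbers were not taken as pairs.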

Additional observations from a re-analysis of the deposited data

How the results depend on the processing

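The log2 fold changes of the 9 genes kept their direction in all 153 values under 17 alternatives, from 1.11 to 4.62. Most of this was fixed in advance. Since the groups do not overlap, leaving out libraries or changing the pseudocount cannot reverse a direction. No filter, limma without its options and the replicate block leave the fold changes as they were. Only the 4 scalings and protein-coding transcripts alone could have reversed a direction. Of the 153 values, 10 passed the threshold and 143 did not, as with all 6 libraries. With 2 pseudocounts, no filter, limma without its options, 4 scalings, protein-coding transcripts alone or the replicate block, 0 of the 9 genes passed. The count was 0 to 2 when 1 library was left out and 7 without both immature library 2 and mature library 1. All 9 genes kept groups that do not overlap, except Ifit3b with quantile normalization. Outside the 4 scalings and protein-coding transcripts alone, this lack of overlap too was fixed by the values with all 6 libraries. The 19 genes called over all genes became 9 with a pseudocount of 0.1, 12 with median-of-ratios scaling, 5 with the replicate block, 1 to 27 when 1 library was left out and 73 without both libraries. The 4 called pathway genes became 1 with a pseudocount of 0.1, 2 with median-of-ratios, upper-quartile or equal-sum scaling, 1 with quantile normalization, 0 with the replicate block, 0 to 5 when 1 library was left out and 12 without both. The member transcripts past the test were 0 with all libraries and under every alternative run on transcripts, also without both libraries. Ifit1, Ifit3 and Isg15, with 1 listed transcript each, passed without both libraries as genes but not as transcripts. Their values are the same in both runs, which differ in the estimate of spread and in adjusting over 10277 genes or 15972 transcripts. The cause of the other shifts in these counts was not tested. Other scalings moved the median of all genes from 0.38 to between -0.02 and 0.12 and the split at an unadjusted p under 0.05 from 978 higher and 23 lower to 460 and 304 with quantile normalization, with the 9 genes' median at 2.21 or more. FPKM gives no read totals, so low immature values carry an unknown counting error.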

Other observations

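Within 50000 bases of the 9 genes lie 10 other listed genes, none overlapping them; this window was chosen after the data were seen. Of the 9 neighbours tested with limma, 0 passed over all genes and 3 were higher in the mature group at an unadjusted p under 0.05, a cut that 9.52% of all genes tested reached in this direction, with log2 fold changes from -0.43 to 1.66 over the 9. AW011738, 2486 bases from Isg15 in the opposite direction, stood at 0.720, 0.449 and 1.26 FPKM in the immature and 5.08, 3.15 and 4.09 FPKM in the mature libraries (log2 fold change 1.50, limma adjusted p = 0.303). Slc6a13, 29310 bases from Usp18, stood at 0.906, 0.309 and 1.79 FPKM and at 3.23, 6.09 and 6.38 FPKM (1.66, limma adjusted p = 0.303). Lipa, a lysosomal lipase gene 23220 bases from Ifit2, stood at 12.9, 18.2 and 7.47 FPKM and at 4.42, 13.1 and 11.2 FPKM. Rnf144a, 27492 bases from Rsad2, stood at 5.55, 0.439 and 34.4 FPKM and at 2.11, 23.8 and 4.55 FPKM, a spread within each group that exceeds the difference between them.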
